A study of Mus musculus with 6 samples.

Results

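The genes described here carry fatty acids into the cell, into the mitochondrion and through beta-oxidation, together with the nuclear receptors that switch these genes on and the genes those receptors induce. Members were taken by gene symbol from a list of 44, and all 44 were found among the 13384 genes of the count table. The libraries hold polyadenylated RNA from the left ventricle of adult mice, 3 with a global deletion of cytoglobin, genotype Cygb(-/-), and 3 wild-type littermates, genotype Cygb(+/+). All 6 mice, controls included, had received angiotensin II, a pressor hormone that enlarges the heart, over 2 weeks by osmotic pump (1.5 mg/kg/day), and no mouse without angiotensin II was analysed here. The deletion was in every cell type, so a difference cannot be assigned to the loss of cytoglobin in any particular cell. The labels name no strain, and Cygb itself was not analysed here, so genotypes are as labelled. Each library came from an individual mouse, and the spread between libraries therefore includes that between animals.

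The adult heart draws most of its energy from long-chain fatty acids. Lipoprotein lipase frees them from circulating lipid, CD36 and the fatty acid binding proteins carry them in, and acyl-CoA synthetases trap them as CoA esters. The carnitine shuttle moves the esters into mitochondria, where the beta-oxidation spiral shortens them and passes electrons to the respiratory chain through the electron transfer flavoprotein. Fatty acids are also ligands of PPAR alpha, which pairs with RXR alpha and, with the coactivators PGC-1 alpha and beta and the estrogen-related receptors, drives transcription of these same genes. In hypertrophied hearts this programme is known to be lowered.

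Library totals ran from 23190864 to 30354857 counts. The tissue carried its defining markers: 12 cardiomyocyte genes summed to between 76603 and 94348 CPM (counts scaled to the library total and by TMM, a size factor between libraries). Wild-type replicate 2 stood apart in the fibroblast markers, with 2152 CPM over 8 genes against 1120 to 1275 CPM in the other 5 libraries. Atrial markers, 5 measured, summed to 3093, 2120 and 727 CPM in the wild-type libraries and to 507 to 583 CPM in the knockouts. Nppa made up most of each sum, at 2282, 2058 and 623 CPM in the wild types and 449 to 533 CPM in the knockouts. Myl4 was at 391.7, 22.7 and 36.2 CPM in the wild types and 16.5 to 21.7 CPM in the knockouts. Myl7 and Sln were likewise far higher in wild-type replicate 1 (249.6 and 112.1 CPM) than in any other library. In wild-type replicate 2 they were at 19.2 and 6.63 CPM. In whole tissue, fewer cells of a type and less RNA per cell cannot be told apart.

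Per kilobase of transcript, the levels of the 44 genes spread from the top of the transcriptome to its lower part. Fabp3, the heart-type fatty acid binding protein, and Lpl, lipoprotein lipase, led with means of 1058 and 1039 CPM per kilobase, both above 99.7% of all genes. Etfb at 617, Ech1 at 606, Fabp4 at 531, Acadvl at 508, Acadm at 492 and Cd36 at 460.3 CPM per kilobase came next. The ranges over libraries of these 6 genes overlapped, as did those of Fabp3 and Lpl, so their order is not fixed beyond the spread. The regulators lay far lower: Esrra stood at 75.9, Ppara at 24.0, Rxra at 16.2, Ppargc1a at 14.7, Ppard at 11.5, Esrrg at 8.81 and Ppargc1b at 5.46 CPM per kilobase. The lowest were Acot1, at 3.70 CPM per kilobase, and Angptl4, at 1.64, the latter above only 19.1% of genes. Cpt1b, the muscle form of the carnitine palmitoyltransferase that commits fatty acids to the mitochondrion, was listed at only 9.82 CPM per kilobase, beside 11.6 for the liver form Cpt1a. The Cpt1b value is uncertain: 93.0% of the 50-base windows of its transcript also occur in transcripts of other genes, chiefly the overlapping read-through gene Gm44502, and how the authors counted such reads is not given. The same holds in part for Etfb (67.3% of windows, with the overlapping gene Gm45233). It also holds for Hadhb (62.4%, and 61.5% with the pseudogene Gm13910) and Fabp3 (37.3%, and 29.2% with Fabp3-ps1).

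**Figure D1:**
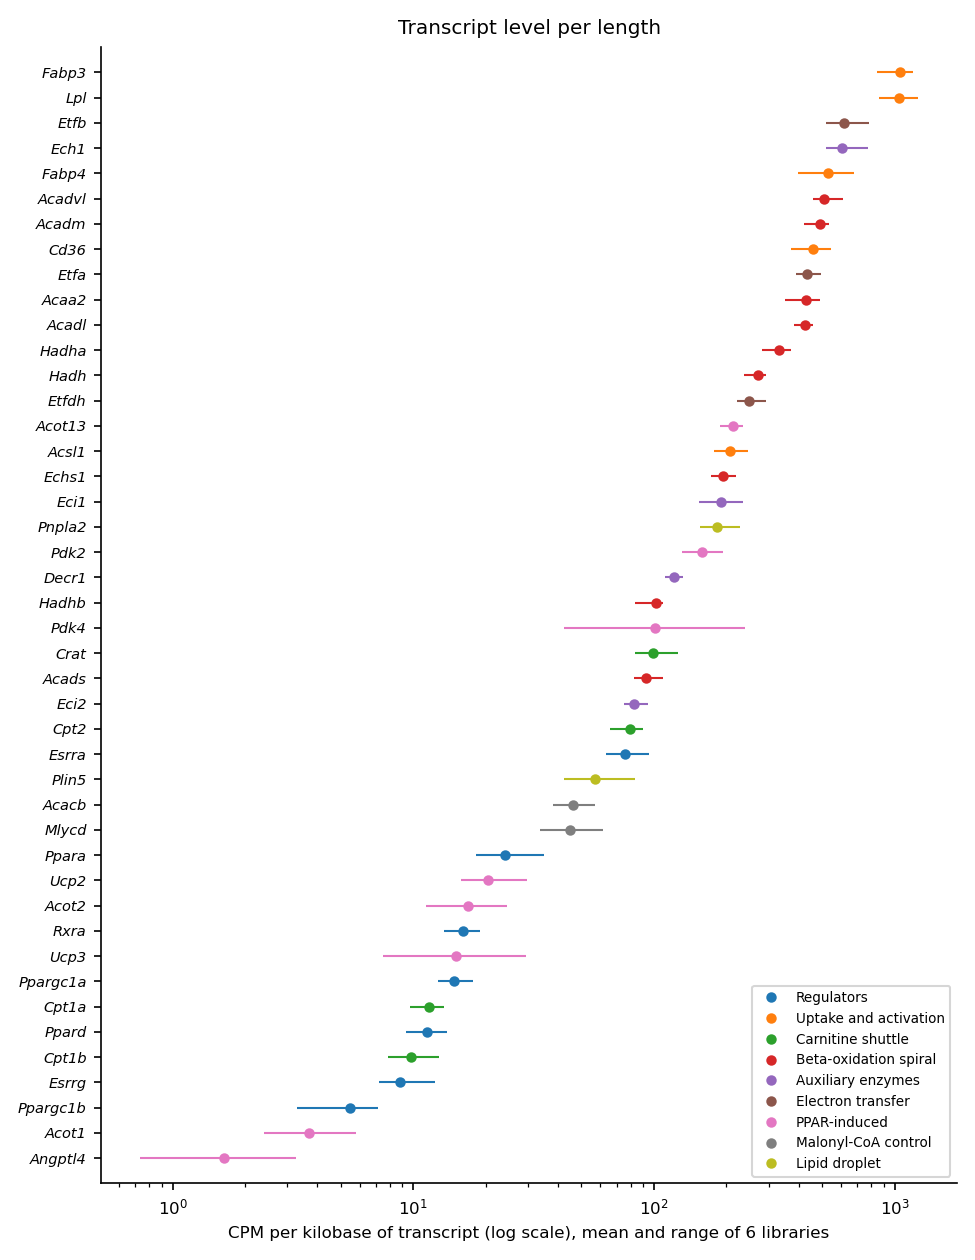
Level of each of the 44 genes in CPM per kilobase of principal transcript on a log axis, ordered by level and coloured by role; the point is the mean and the bar the range over the 6 libraries. Uptake and spiral genes lie mostly above 100 CPM per kilobase, while the receptors and coactivators and the cytosolic thioesterase Acot1 lie near or below 100.

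None of the 44 genes passed an adjusted p of 0.05 in edgeR's quasi-likelihood test of knockout against wild type, where 0.112% of all genes did (15 genes; 0.0897% higher and 0.0224% lower). The median log2 fold change, knockout minus wild type, was -0.020 over the 44 genes and -0.0045 over all genes; 19 members lay above 0 and 25 below. At an unadjusted edgeR p under 0.05 there were 4 members higher in the knockout (9.09%, against 10.2% of all genes) and 6 lower (13.6%, against 8.94%). The 3 knockout values lay wholly above the 3 wild-type values in 5 members (11.4%, against 11.8% of all genes) and wholly below in 4 (9.09%, against 10.5%). These shares are near the background in both directions. By DESeq2, which called 2.63% of all genes higher and 1.99% lower, Ppara (higher) and Acot2 (lower) passed. By edgeR without wild-type replicate 2, which called 13.6% of all genes, 9 members passed; their values stand with each gene below.

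**Figure D2:**
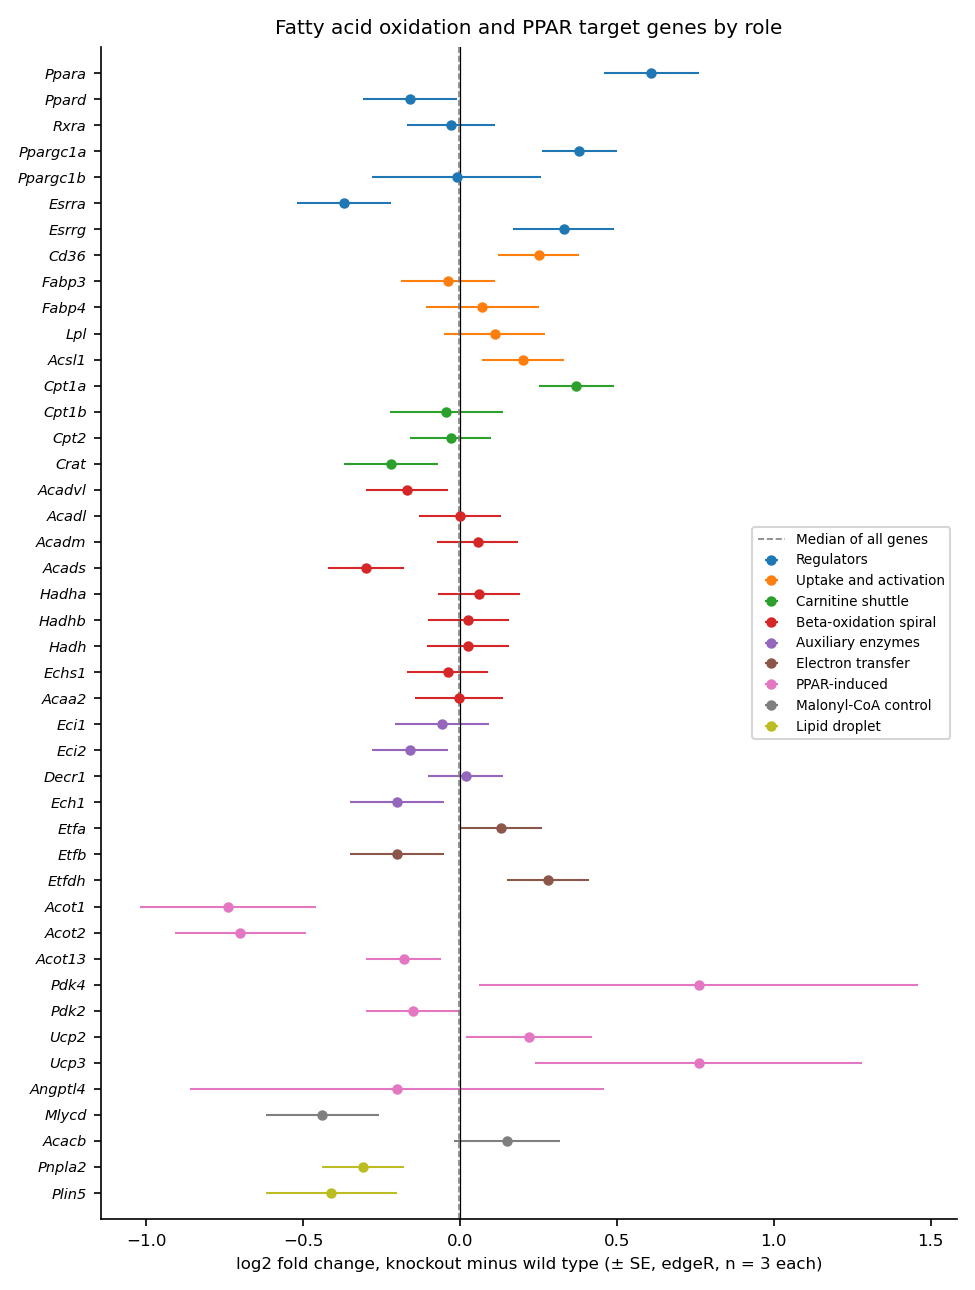
Log2 fold change (knockout minus wild type) with its standard error for each of the 44 genes, ordered and coloured by role, from edgeR on 3 against 3 libraries; the dashed line is the median of all genes. The spiral genes lie within 0.30 of 0 on the log2 scale, and the largest values belong to Ppara, Acot1, Acot2, Pdk4 and Ucp3, the last 2 with wide errors.

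Among the 7 regulators, Ppara, the fatty acid receptor itself, had the smallest p of all 44 genes. Ppara (chr15:85734983-85802819 of GRCm38) stood at 99.9, 77.6 and 119 CPM in the knockout libraries and at 63.8, 62.5 and 67.6 CPM in the wild type. Every knockout value lay above every wild-type value, and the 3 wild-type values were close together while the knockouts ranged widely. The knockout mean was 1.53-fold the wild-type mean, with a log2 fold change of 0.61 (SE 0.15) that missed the threshold in edgeR (adjusted p = 0.0847) and passed it in DESeq2 (adjusted p = 0.0135) and in edgeR without wild-type replicate 2 (0.60, adjusted p = 0.0334).

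Ppargc1a, the coactivator PGC-1 alpha (chr5:51454250-51567726), had the same order of groups: 114, 94.6 and 114 CPM in the knockouts and 83.3, 82.8 and 82.0 CPM in the wild type, without overlap. Its log2 fold change was 0.38 (SE 0.12) at an edgeR adjusted p of 0.136. When the trend of the counts on GC content and transcript length was removed from each library, it came to 0.057, whereas that of Ppara stayed at 0.63 (edgeR adjusted p = 0.0883). Ppargc1a transcripts are 41.7% GC and those of Ppara 51.5%.

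Esrra, estrogen-related receptor alpha, a partner of PGC-1 alpha (chr19:6910977-6921813), pointed the other way, at 160.4, 144 and 142 CPM in the knockouts and 215, 146 and 215 CPM in the wild type. Wild-type replicate 2 lay inside the knockout range and the other wild types above it. The log2 fold change was -0.37 (SE 0.15) at an edgeR adjusted p of 0.224; it was -0.52 without wild-type replicate 2 (adjusted p = 0.0132) and 0.023 after the GC correction, its transcript being 61.8% GC. Its relative Esrrg stood at 52.0 ± 11.8 CPM in knockout mice and 41.3 ± 2.85 CPM in wild-type mice (SD, n = 3 each), with groups that overlapped and a log2 difference of 0.33. That difference was 0.070 after the GC correction, for a transcript of 42.7% GC, and 0.14 without knockout replicate 3.

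The remaining regulators had overlapping groups. Rxra, the obligate partner of the PPARs, stood at 78.5 ± 5.36 CPM in knockout mice and 80.1 ± 13.5 CPM in wild-type mice. Ppargc1b, the coactivator PGC-1 beta, stood at 19.9 ± 7.19 and 20.03 ± 4.97 CPM, and Ppard, the delta receptor, at 35.4 ± 1.47 and 39.7 ± 7.89 CPM (SD, n = 3 each).

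PPARs and estrogen-related receptors bind around the hexamer AGGTCA, so the 300-base windows from 250 bases before to 50 bases after the RefSeq gene starts (build GRCm38.p6) were searched for it on both strands. Windows were found for 35 members; Crat, Fabp4, Acot13, Cpt1b, Acaa2, Ppargc1b, Decr1, Lpl and Angptl4 had none in the table used. The hexamer occurred in 9 of the 35 (25.7%), against 18.1% of 27025 genes. Its tandem form, the DR1 repeat of AGGTCA, any base and AGGTCA again, occurred in no member and in 0.0481% of genes, and no match in this window says nothing about binding elsewhere. The extended form AAGGTCA, which overlaps AGGTCA, was in 3 members (8.57%, against 5.38% of genes): Rxra, Acadm and Acacb. The GC box GGGCGG was in 24 members (68.6%, against 38.2% of genes). For each motif the comparison is with all 27025 genes that have a window, and the share over the genes of the count table was not counted. The stretches below are 30 bases each, written 5′ to 3′ on the gene's strand. The hexamer is in capitals (TGACCT where it lies on the other strand). Distances are from the RefSeq start of the window searched. The stretches of Cd36 and Cpt1a lie inside the gene spans given below, so upstream there refers to an internal start. They are shown for 6 of the 9 genes, without Rxra, Echs1 and Acacb, and the other place in Plin5 is left out.
Ucp3, chr7:100472830-100472859, plus strand, 149 bases upstream: ttaaagagccccAGGTCAcggaagctaaac
Ucp3, chr7:100472935-100472964, plus strand, 44 bases upstream: gaattaggtttcAGGTCAgctggtgcacag
Cpt1a, chr19:3323195-3323224, plus strand, 94 bases upstream: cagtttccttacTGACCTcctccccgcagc
Acadm, chr3:153944864-153944893, minus strand, 249 bases upstream: gTGACCTtcgggctccggtgacactgggca
Acadvl, chr11:70015498-70015527, minus strand, 87 bases upstream: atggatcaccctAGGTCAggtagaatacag
Cd36, chr5:17836107-17836136, minus strand, 228 bases upstream: ctctgcactttaTGACCTgagattttcagg
Plin5, chr17:56117701-56117730, minus strand, 170 bases upstream: agtcctagtctgAGGTCAgccatggtgact
Ucp3, Rxra and Plin5 each carried the hexamer at 2 places. Of the 4 members with an unadjusted edgeR p under 0.05 and a higher knockout mean, only Cpt1a has the hexamer in its window. These matches are descriptions of the sequence, not bound sites.

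Of the 5 genes of uptake and activation, 4 had higher knockout means and none passed; the median log2 fold change was 0.11, and -0.014 after the GC correction. Cd36, the fatty acid translocase (chr5:17781690-17888801), was at 1849, 1617 and 1632 CPM in the knockouts and 1262, 1584 and 1444 CPM in the wild type. The groups did not overlap, though knockout replicate 2 and wild-type replicate 2 were close to each other. Its log2 fold change of 0.25 (SE 0.13) at an edgeR adjusted p of 0.315 came to -0.014 after the GC correction, and its transcript is 38.4% GC. Lpl, which is anchored on the capillary wall and frees fatty acids from triglyceride (chr8:68880491-68907448), stood at 4163, 4578 and 4600 CPM in the knockouts and 3555, 3611 and 5156 CPM in the wild type. Wild-type replicate 3 was the highest of all 6 libraries, and the other wild types the lowest. The Lpl log2 fold change was 0.11 (SE 0.16) at an edgeR adjusted p of 0.713.

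Acsl1, the main acyl-CoA synthetase of heart, was at 865 ± 87.2 CPM in knockout mice and 752 ± 61.7 CPM in wild-type mice, Fabp3 at 859 ± 56.6 and 882 ± 160.3 CPM, and Fabp4, the binding protein of endothelium and fat, at 488 ± 104 and 464 ± 93.3 CPM (SD, n = 3 each), all with overlapping groups. Cd36 and Fabp4 are also made by capillary endothelium. The 13 endothelial markers summed to 1772 to 1957 CPM in the knockouts and 1611 to 2177 CPM in the wild type, so their summed ranges overlapped. The single markers did not move together: 4 of 13 were lower at an unadjusted edgeR p under 0.05 (30.8%, against 8.94% of all genes) and 1 was higher. Egfl7 was lower without overlap (log2 difference -0.60), Kdr (-0.54) and Tcf15 (-0.93) were lower with overlap, and Aqp1 was higher without overlap (0.52). The 8 macrophage markers summed to 405.6 to 415.7 CPM in the knockouts and 319.8 to 398.8 CPM in the wild type, without overlap. Of these, 6 lay above 0 and 2 below. At an unadjusted edgeR p under 0.05, 2 were higher (25.0%, against 10.2% of all genes) and 0 lower. The part of endothelial cells and macrophages in the values of Cd36 and Fabp4 was not tested. Of 10 adipocyte markers 5 were measured, and they summed to 43.0 to 52.4 CPM in the knockouts and 48.4 to 53.8 CPM in the wild type. Cidea made up most of this, at 25.5 to 36.1 CPM, followed by Slc36a2 at 10.5 to 16.9 CPM and Cfd at 2.03 to 5.27 CPM. Plin1 was at 0.524 to 0.906 CPM and Cidec at 0.572 to 1.51 CPM, near the lowest level of the table (0.499 CPM).

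In the carnitine shuttle, Cpt1a stood apart from the other 3 genes. Cpt1a, which joins long-chain fatty acids to carnitine at the outer membrane (chr19:3322334-3385733), was at 54.9, 56.5 and 58.0 CPM in the knockouts and 43.2, 45.9 and 41.7 CPM in the wild type. The groups were tight and did not overlap. The knockout mean was 1.29-fold the wild-type mean, with a log2 fold change of 0.37 (SE 0.12) at an edgeR adjusted p of 0.132. It was 0.42 without wild-type replicate 2 (adjusted p = 0.0329), between 0.34 and 0.42 whichever library was left out, and 0.35 after the GC correction (adjusted p = 0.14).

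Cpt1b (chr15:89416405-89425863), the isoform that predominates in adult heart muscle, was at 29.0, 24.5 and 30.5 CPM in the knockouts and 36.9, 22.7 and 26.9 CPM in the wild type. Wild-type libraries were both the highest and the lowest, and the log2 fold change was -0.044 (SE 0.18) at an edgeR adjusted p of 0.913. Cpt2, which rebuilds acyl-CoA at the inner membrane, was at 186 ± 2.96 CPM in knockout mice and 189.9 ± 30.04 CPM in wild-type mice. Crat, carnitine acetyltransferase, was at 388 ± 20.9 and 451 ± 91.7 CPM (SD, n = 3 each). Both had overlapping groups.

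The 9 genes of the beta-oxidation spiral had log2 fold changes from -0.30 to 0.060, a median of -0.00096 and none past the threshold. Acadm, the medium-chain acyl-CoA dehydrogenase and a standard PPAR alpha target (chr3:153922357-153944632), was at 1040, 944 and 1096 CPM in the knockouts and 1014, 864 and 1086 CPM in the wild type. The values interleave, and the log2 fold change was 0.056 (SE 0.13) at an edgeR adjusted p of 0.844. Hadha, the alpha subunit of the trifunctional protein (chr5:30118304-30155162), was at 1236, 1333 and 1498 CPM in the knockouts and 1421, 1131 and 1350 CPM in the wild type, again interleaved, with a log2 fold change of 0.060 (SE 0.13) at an edgeR adjusted p of 0.837.

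Hadhb, the beta subunit, is read in the opposite direction from Hadha, and the 85 bases between the gene starts are shown because they belong to the promoter windows of both genes. The stretch, chr5:30155163-30155247 on the plus strand of GRCm38.p6 from RefSeq, is 69.4% GC and holds 2 GC boxes (in capitals).
Hadha-Hadhb: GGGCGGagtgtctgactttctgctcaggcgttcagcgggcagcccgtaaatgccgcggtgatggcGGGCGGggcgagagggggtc
Hadhb stood at 210.4 ± 8.47 CPM in knockout mice and 207 ± 30.5 CPM in wild-type mice (SD, n = 3 each), a log2 difference of 0.026 beside the 0.060 of Hadha. Across libraries the 2 genes did not follow each other: wild-type replicate 2 was the lowest of 6 for Hadha and the highest for Hadhb, whose count shares sequence with a pseudogene.

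Acads, the short-chain acyl-CoA dehydrogenase (chr5:115110299-115119346), was the exception in the spiral. It was at 155, 154 and 156 CPM in the knockouts and 199, 172 and 204 CPM in the wild type, so that every knockout lay below every wild type. The log2 fold change was -0.30 (SE 0.12) at an edgeR adjusted p of 0.196, -0.37 without wild-type replicate 2 (adjusted p = 0.0388) and 0.019 after the GC correction, for a transcript of 60.1% GC. The remaining 5 spiral genes also had overlapping groups. Acadvl, which starts on very long chains, stood at 1035 ± 25.4 CPM in knockout mice and 1168 ± 163 CPM in wild-type mice, and Acadl, the long-chain enzyme, at 810.3 ± 60.6 and 811 ± 72.3 CPM. Hadh, the hydroxyacyl-CoA dehydrogenase, was at 486 ± 33.5 and 478 ± 52.2 CPM. Echs1, the enoyl-CoA hydratase, was at 298 ± 17.5 and 306 ± 36.7 CPM, and Acaa2, the closing thiolase, at 646 ± 19.9 and 648 ± 107 CPM (SD, n = 3 each). In each of these 5 genes the lowest of the 6 libraries was wild-type replicate 2. Acadvl shares exon sequence with Dvl2 on the other strand, a gene at 6.62 to 12.7 CPM.

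Auxiliary enzymes for unsaturated chains had a median difference of -0.11 (log2) over their 4 genes. Eci2, an enoyl-CoA isomerase, was at 139.9, 136 and 131 CPM in the knockouts and 151, 141 and 164 CPM in the wild type, without overlap but with a log2 difference of only -0.16 (edgeR adjusted p = 0.466). Eci1, the mitochondrial isomerase, was at 212 ± 6.42 CPM in knockout mice and 221 ± 45.6 CPM in wild-type mice. Decr1, the dienoyl-CoA reductase, was at 360.4 ± 12.3 and 356 ± 31.5 CPM, and Ech1, the dienoyl-CoA isomerase, at 716 ± 29.9 and 820.2 ± 162 CPM (SD, n = 3 each), all with overlapping groups. In all 3, wild-type replicate 2 was the lowest and wild-type replicate 3 the highest library.

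The electron transfer genes differed in sign before the GC correction. After it the log2 fold changes were 0.068 for Etfa, 0.075 for Etfb and 0.23 for Etfdh (SE 0.1 each). Those of Etfa and Etfb were smaller than their standard errors, so their sign is not settled. Etfdh, the membrane oxidoreductase that hands electrons to ubiquinone, was at 692, 553 and 689 CPM in the knockouts and 529, 538 and 529 CPM in the wild type. The groups did not overlap, although knockout replicate 2 lay close to the wild types, and the log2 fold change was 0.28 (SE 0.13) at an edgeR adjusted p of 0.26. Without correction the flavoprotein's subunits lay on opposite sides of 0: Etfa was at 631 ± 66.1 CPM in knockout mice and 575 ± 34.7 CPM in wild-type mice, and Etfb at 513 ± 21.1 and 588 ± 119 CPM (SD, n = 3 each).

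The 8 genes grouped here as PPAR-induced, which include Pdk2 and Ucp2, had no common direction. Their median log2 fold change was -0.16 (-0.014 after the GC correction), with 3 above 0 and 5 below. The 3 acyl-CoA thioesterases among them, which split acyl-CoA back to free acid, were lower in the knockout mean. Acot2, the mitochondrial form (chr12:83987861-83993873), was at 24.7, 35.0 and 25.5 CPM in the knockouts and 53.6, 31.3 and 53.2 CPM in the wild type. Wild-type replicates 1 and 3 lay above every knockout and wild-type replicate 2 inside the knockout range. The wild-type mean was 1.62-fold the knockout mean, with a log2 fold change of -0.70 (SE 0.21) that missed in edgeR (adjusted p = 0.125) and passed in DESeq2 (adjusted p = 0.033) and in edgeR without wild-type replicate 2 (-0.90, adjusted p = 0.00614). After the GC correction it was -0.57 (edgeR adjusted p = 0.234).

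Acot1, the cytosolic form (chr12:84009490-84018371), gave the same picture at a lower level, with 5.47, 7.87 and 5.60 CPM in the knockouts and 12.4, 5.97 and 13.2 CPM in the wild type. Again only wild-type replicate 2 lay inside the knockout range. The log2 fold change was -0.74 (SE 0.28) at an edgeR adjusted p of 0.189 and -1.01 without wild-type replicate 2 (adjusted p = 0.00986). The 2 genes may not be independent measurements, as how reads matching both were counted is not given. They start 21.6 kb apart on the plus strand of chromosome 12, and their coding sequences are identical at 1183 of 1236 aligned bases (95.7%). Of the 50-base windows of Acot1, 33.6% also occur in transcripts of any other gene and 23.7% in those of Acot2. Of the windows of Acot2, 27.7% occur in transcripts of any other gene and 24.5% in those of Acot1. The longest run they share, 273 coding bases of exon 3 without a difference, lies at chr12:84017006-84017278 in Acot1 and chr12:83992728-83993000 in Acot2 (GRCm38, GENCODE M21) so that a read lying wholly within it matches both genes.
Acot1 and Acot2: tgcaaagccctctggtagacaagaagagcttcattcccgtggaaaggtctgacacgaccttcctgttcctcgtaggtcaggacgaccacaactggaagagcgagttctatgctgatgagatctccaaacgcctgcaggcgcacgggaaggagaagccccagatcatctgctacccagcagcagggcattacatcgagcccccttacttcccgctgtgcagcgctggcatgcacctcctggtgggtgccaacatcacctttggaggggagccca
The neighbouring family members Acot3, Acot4 and Acot6, which are outside the list and were looked up after these values were seen, were at 0.573 to 2.72, 0.613 to 0.832 and 1.34 to 2.49 CPM over the 6 libraries. Acot3 was lower in the knockout mean (log2 difference -0.83) through wild-type replicate 1, at 2.72 CPM. The other wild types were at 0.582 and 0.950 CPM and the knockouts at 0.573 to 0.898 CPM, near the lowest level of any gene (0.499 CPM). Acot4 had a log2 difference of 0.022, and Acot6 was higher in every knockout than in any wild type (0.51). None of these family members passed the threshold. Acot13, a mitochondrial thioesterase of a different protein family, was at 151, 136 and 146 CPM in the knockouts and 156, 165 and 169.7 CPM in the wild type, without overlap and with a log2 difference of -0.18 (edgeR adjusted p = 0.413).

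The fasting-type PPAR targets Pdk4, Ucp3 and Angptl4 varied more between animals than any other member. Their highest library was 5.62, 3.91 and 4.46 times the lowest, where 1.7% of all genes reached 4 times. Pdk4, the kinase that shuts pyruvate out of the mitochondrion (chr6:5483351-5496309), was at 832, 316 and 174 CPM in the knockouts and 309, 148 and 326 CPM in the wild type. Knockout replicate 1 lay far above the other 5 libraries, which overlapped. The log2 fold change of 0.76 (SE 0.70) at an edgeR adjusted p of 0.605 came to -0.090 without that library. Ucp3, the muscle uncoupling protein (chr7:100472990-100486432), was at 71.9, 37.3 and 29.5 CPM in the knockouts and 18.6, 18.4 and 44.7 CPM in the wild type. Knockout replicate 1 was again the highest, and the log2 fold change of 0.76 (SE 0.52) at an edgeR adjusted p of 0.48 was 0.29 without it and 1.32 without wild-type replicate 3.

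Angptl4, a secreted inhibitor of lipoprotein lipase (chr17:33773750-33781830), was at 8.49, 4.24 and 2.43 CPM in the knockouts and 3.25, 3.26 and 10.8 CPM in the wild type. Knockout replicate 1 and wild-type replicate 3 were the highest, as they were for Ucp3, and the log2 fold change was -0.20 (SE 0.66) at an edgeR adjusted p of 0.895. Ucp2, the widely expressed uncoupling protein, was at 118, 80.1 and 65.3 CPM in the knockouts and 78.9, 62.8 and 85.3 CPM in the wild type, also highest in knockout replicate 1. Pdk2, the constitutive kinase, was at 336 ± 25.4 CPM in knockout mice and 372 ± 71.9 CPM in wild-type mice (SD, n = 3 each). Feeding state and time of day at harvest are not in the labels used here.

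**Figure D3:**
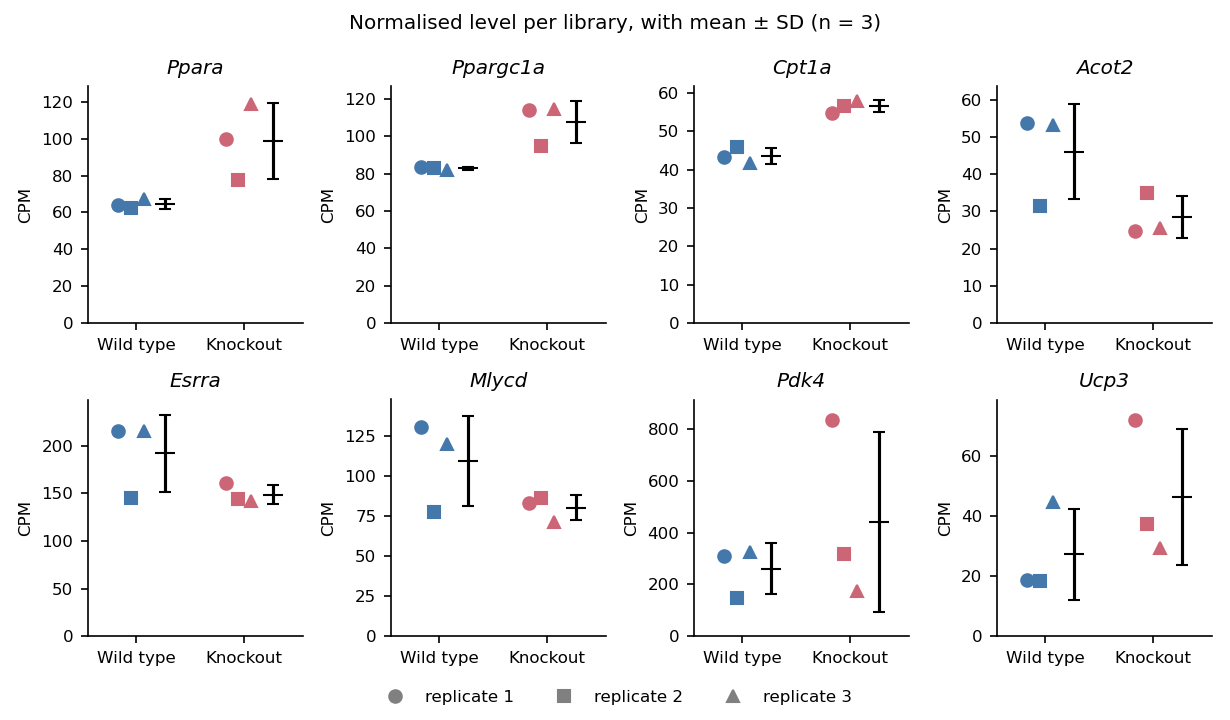
TMM-scaled CPM of selected members in each of the 3 knockout and 3 wild-type libraries, with the mean ± SD beside each group and a symbol for each replicate number. Ppara and Cpt1a show groups that do not overlap, Acot2 shows wild-type replicate 2 among the knockouts, and Pdk4 shows knockout replicate 1 far above the rest.

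Malonyl-CoA, which blocks Cpt1, is made by Acacb at the mitochondrial surface and removed by Mlycd. Mlycd, malonyl-CoA decarboxylase (chr8:119394878-119411102), was at 83.4, 86.7 and 71.5 CPM in the knockouts and 131, 77.7 and 120.3 CPM in the wild type. Wild-type replicate 2 lay inside the knockout range and the other wild types above it. The log2 fold change was -0.44 (SE 0.18) at an edgeR adjusted p of 0.204, -0.63 without wild-type replicate 2 (adjusted p = 0.00966) and -0.076 after the GC correction, for a transcript of 61.0% GC. Acacb was at 428 ± 72.0 CPM in knockout mice and 384 ± 82.5 CPM in wild-type mice (SD, n = 3 each), with overlapping groups.

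Both genes of the lipid droplet surface had lower knockout means. Pnpla2, the triglyceride lipase that releases fatty acids as PPAR alpha ligands (chr7:141455198-141460743), was at 280.0, 308 and 292 CPM in the knockouts and 373, 311 and 408 CPM in the wild type. The groups did not overlap, by a narrow margin between knockout replicate 2 and wild-type replicate 2. The log2 fold change was -0.31 (SE 0.13) at an edgeR adjusted p of 0.224, -0.41 without wild-type replicate 2 (adjusted p = 0.0322) and -0.031 after the GC correction. Plin5, the perilipin of oxidative tissue that holds Pnpla2 at the droplet, was at 117, 91.1 and 83.8 CPM in the knockouts and 166, 88.3 and 134 CPM in the wild type, with overlap through wild-type replicate 2. Its log2 fold change of -0.41 (SE 0.21) at an edgeR adjusted p of 0.313 was -0.62 without that library (adjusted p = 0.0238) and -0.12 after the GC correction.

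Wild-type replicate 2 was thus a recurring exception. It was the lowest of all 6 libraries in 23 of the 44 genes, against 15.9% of all genes, and the lowest wild type in 32 (72.7%, against 38.6% of all genes). Wild-type replicate 3 was the highest of all 6 in 18 members, against 19.9% of all genes. The median deviation of the members from their own mean over libraries was -0.22 in wild-type replicate 2 and 0.14 in wild-type replicate 3 on the log2 scale, and between -0.053 and 0.050 in the other 4. Without wild-type replicate 2 the 2 members called higher were Ppara and Cpt1a, and the 7 called lower were Acot1, Acot2, Mlycd, Esrra, Plin5, Pnpla2 and Acads. These are 2 and 7 of 44, beside 7.25% and 6.39% of all genes. That library also had the highest sum of the 8 fibroblast markers (2152 CPM, against 1120 to 1275 CPM in the others). Not every marker was highest there: Tcf21 was at 12.6 CPM, against 13.4 CPM in wild-type replicate 1. Postn, which is outside that list, was at 542 CPM, against 97.8 to 172 CPM in the others. The cardiomyocyte markers of wild-type replicate 2, at 77040 CPM, were within the range of the knockouts. The part of these cell types in the lower member values was not tested.

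**Figure D4:**
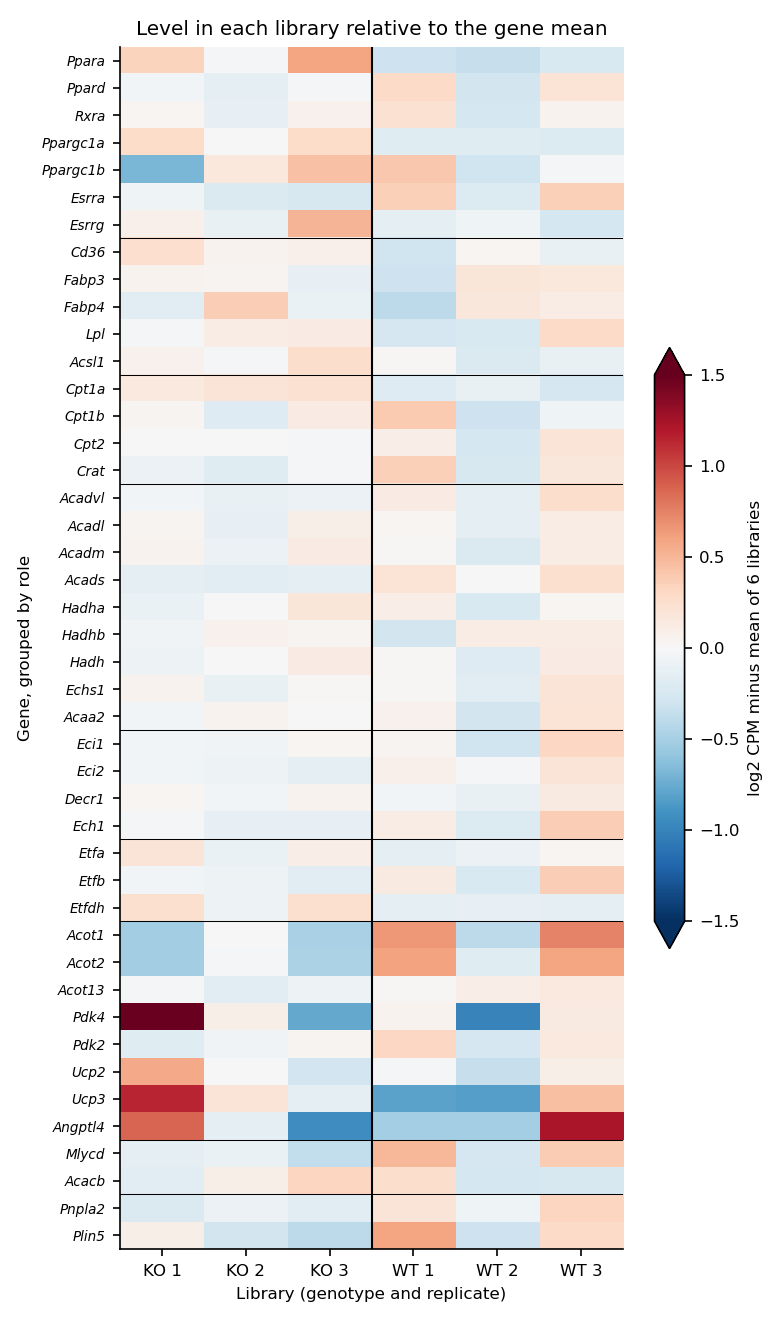
Deviation of each member from its mean over the 6 libraries, on the log2 scale, with genes in rows by role and libraries in columns. The column of wild-type replicate 2 is low for most genes outside the uptake group, and Pdk4, Ucp3 and Angptl4 show the widest range.

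The sign of a member's fold change ran with its GC content, as did that of all genes. The 7 members under 45% GC all lay above 0 (median log2 fold change 0.25), and 10 of the 12 members of at least 55% GC lay below 0, with a median of -0.18. Over all genes the medians in the same classes were 0.21 and -0.22. After removal of the GC and length trend of each library, the medians of those members were -0.014 and 0.076, and those of all genes 0.0028 and 0.0019. Under this correction 3 members were higher at an unadjusted edgeR p under 0.05 and 2 lower, beside 7.33% and 6.5% of all genes. Those lower were Acot1 (-0.61) and Acot2 (-0.57), and those higher were Ppara (0.63), Cpt1a (0.35) and Etfdh (0.23). In the corrected values 18 members changed sign, and Ppara and Cpt1a were the only members whose groups did not overlap. The share of all genes without overlap was not counted under the correction, so these 2 members have no background beside them. The origin of the GC trend was not tested.

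**Figure D5:**
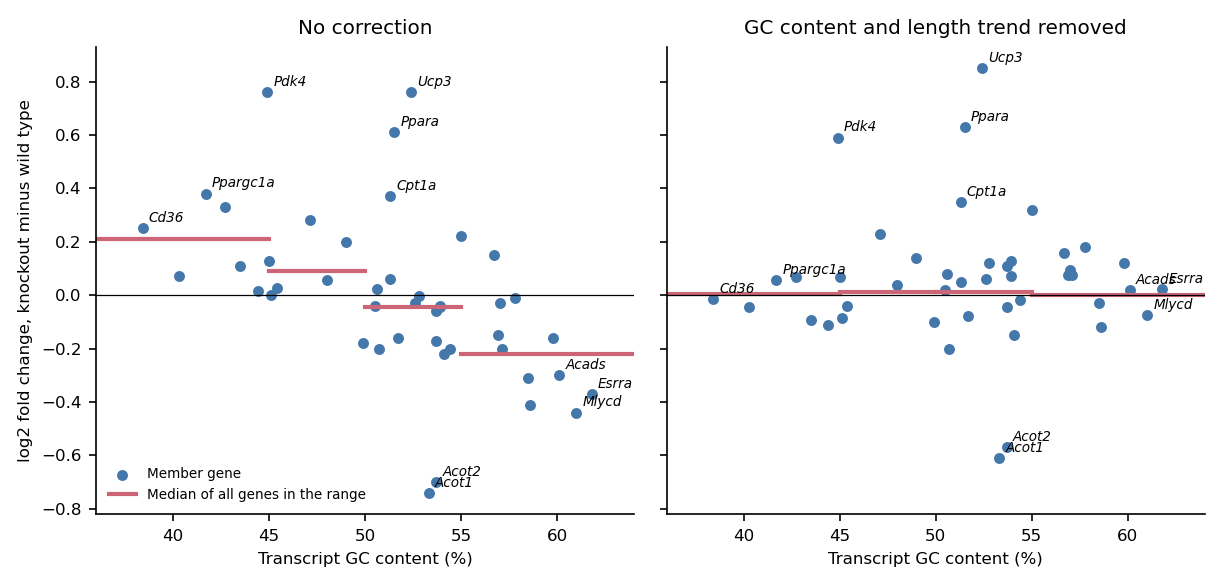
Log2 fold change (knockout minus wild type) of the 44 members against the GC content of their principal transcript in percent, before (left) and after (right) the GC and length correction; red lines are the medians of all genes in each GC range. Before correction the members run from above 0 at low GC to below 0 at high GC. After it 18 members change sign, and Ppara, Cpt1a, Acot1 and Acot2 are among those that keep their side.

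Other genes of the same pathways gave no calls either. Of 52 further lipid genes measured (transport, activation, peroxisomal oxidation, ketone bodies and storage), 26 lay above 0 and 26 below, and at an unadjusted edgeR p under 0.05 there were 6 higher (11.5%, against 10.2% of all genes) and 2 lower (3.85%, against 8.94%). The smallest p belonged to Acsl6, an acyl-CoA synthetase, at 16.6 ± 3.86 CPM in knockout mice and 8.59 ± 1.93 CPM in wild-type mice (log2 fold change 0.96 ± 0.21 SE at an edgeR adjusted p of 0.0703). Vldlr, a receptor for triglyceride-rich lipoprotein, was at 401 ± 49.5 and 278 ± 15.4 CPM (0.53, SE 0.13, adjusted p = 0.0815). Plin4, a perilipin, and Acadsb, a dehydrogenase of branched chains, were also without overlap, at log2 differences of 0.37 and 0.38.

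Of 30 related receptors, coregulators and upstream factors, 20 lay above 0 and the median was 0.15 on the log2 scale (0.068 after the GC correction), and at an unadjusted edgeR p under 0.05 there were 9 higher, where 10.2% of all genes were, and 0 lower. Ncoa2, a receptor coactivator, was at 55.9 ± 7.08 CPM in knockout mice and 37.7 ± 5.19 CPM in wild-type mice (log2 fold change 0.57, edgeR adjusted p = 0.0909). Nrip1, a corepressor of oxidative genes, was at 14.9 ± 3.63 and 6.85 ± 3.28 CPM (1.13, adjusted p = 0.127). Of 22 genes of the tricarboxylic acid cycle, which receives the acetyl-CoA, 2 were higher (9.09%) and 1 lower (4.55%) at that level, near or below the shares of all genes, with a median of 0.048.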

How the data were processed

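Polyadenylated RNA of 6 left ventricles was sequenced, 3 per genotype. The authors deposited raw, whole-number counts per gene for these libraries. Build mm10 and DESeq2 appear, unversioned, in the submitters' processing notes. Which aligner, counter and annotation were used, and whether strand was, is not given in the sources used here. Every gene had at least 12 counts in every library, and whether low genes had been removed is not given.

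The robust quasi-likelihood test of edgeR 4.0.16 (under R 4.3.3) was run on the counts with TMM factors, without covariates; the filter on low counts removed 0% of genes. Tests were two-sided and adjusted by Benjamini-Hochberg over 13384 genes, threshold 0.05. The common biological coefficient of variation was 0.166. Levels are mean ± SD of TMM-scaled CPM. Coordinates, GC content and principal transcript length came from GENCODE M21 (GRCm38), matched for 12612 genes (94.2%), and promoter windows from RefSeq. Standard errors come from the test statistic.

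The members, roles and other lists were chosen with earlier results of these data known, so none is independent evidence. Full statistics were given for the 8 members with the smallest p and for Ppara, Ppargc1a, Esrra, Cd36, Lpl, Cpt1b, Acadm, Hadha, Pdk4, Ucp3 and Angptl4; from the other lists at most 4 genes by p. Etfdh, Plin5 and the other genes given with their errors or tests were chosen after their values were seen. Alternatives were other size factors, filters, DESeq2 1.42.0, limma-voom (limma 3.58.1), no robust estimation, a replicate block, a spline correction (4 degrees of freedom) on GC content and length, and leaving out each library. The scripts were tested on simulated data.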

Additional observations from a re-analysis of the deposited data

How the results depend on the processing

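Over 16 alternatives, 19 of the 44 members kept the sign of their log2 fold change and 25 changed it at least once. The GC content and length correction changed the sign of 18 members, giving Ppard 0.12, Rxra 0.094, Ppargc1b 0.18, Esrra 0.023, Cd36 -0.014, Fabp3 0.13, Fabp4 -0.044, Lpl -0.092, Cpt1b 0.073, Cpt2 0.062, Acads 0.019, Hadhb -0.040, Echs1 0.021, Acaa2 0.12, Eci1 0.11, Decr1 -0.11, Etfb 0.075 and Pdk2 0.078. The lipid droplet median came to -0.074, the members at an unadjusted p under 0.05 and lower to 2, and all genes called lower to 5. Members without overlap came to 2 higher and 0 lower, and the same share of all genes was not counted under this correction. With the replicate block and this correction together the values were Ppard 0.12, Rxra 0.092, Ppargc1b 0.14, Esrra 0.021, Cd36 -0.013, Fabp3 0.15, Fabp4 -0.074, Lpl -0.061, Cpt1b 0.083, Cpt2 0.069, Acads 0.019, Hadhb -0.038, Echs1 0.024, Acaa2 0.13, Eci1 0.12, Decr1 -0.10, Etfb 0.080 and Pdk2 0.081, the lipid droplet median -0.071, 1 member lower at an unadjusted p under 0.05, and 19 higher and 12 lower calls over all genes.

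The replicate block alone called no member and, over all genes, 131 higher and 87 lower against 12 and 3; it gave Acadl 0.00020 and Acaa2 0.0084. The labels do not say that the replicate numbers pair the mice. Same-numbered libraries had correlations of their deviations of -0.121, -0.0759 and -0.149, and none correlated best with its own number. Deviations from means of 3 libraries cannot show whether same-numbered mice shared a litter or day. DESeq2 called 352 higher and 266 lower over all genes, with 1 member each; limma-voom gave 5 lower calls, Acadl 0.00020 and Acaa2 0.0087; without robust estimation 7 genes were higher; at 5 CPM or more in 3 libraries Acadl was 0.0019 and Angptl4 was not tested.

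Leaving out each library in turn gave 0 to 971 higher and 0 to 855 lower calls over all genes, both highest without wild-type replicate 2, and 0 to 2 and 0 to 7 among members. Members at an unadjusted p under 0.05 ranged from 3 to 6 higher and 1 to 13 lower, and those without overlap from 5 to 8 and 4 to 18. The highest counts lower, 13 and 18, came without wild-type replicate 2 and are 29.5% and 40.9% of members, beside 15.3% and 24.9% of all genes; the higher counts there were 13.6% in both cases, beside 16.3% and 23.6%. In the other omissions, 6.82% to 11.4% of members were higher and 2.27% to 9.09% lower at an unadjusted edgeR p under 0.05. The shares of all genes were 5.6% to 9.3% and 4.54% to 7.85%. Without overlap, 11.4% to 18.2% of members were higher and 9.09% to 13.6% lower, beside 14.2% to 19.7% and 12.5% to 16.4% of all genes. The regulator median ran from -0.15 to 0.25. Sign changes occurred in the ranges of Rxra (-0.15 to 0.088), Ppargc1b (-0.26 to 0.25), Fabp3 (-0.18 to 0.052), Fabp4 (-0.12 to 0.18), Cpt1b (-0.18 to 0.17), Cpt2 (-0.15 to 0.063), Acadl (-0.062 to 0.058), Acadm (-0.025 to 0.13), Hadha (-0.024 to 0.13), Hadhb (-0.091 to 0.098), Hadh (-0.051 to 0.096), Echs1 (-0.12 to 0.049), Acaa2 (-0.12 to 0.10), Eci1 (-0.19 to 0.098), Decr1 (-0.027 to 0.090), Pdk4 (-0.090 to 1.14), Ucp2 (-0.058 to 0.39) and Angptl4 (-0.80 to 0.64). Over all alternatives the adjusted p ran from 0.0135 to 0.413 for Ppara, 0.0329 to 0.47 for Cpt1a, 0.00614 to 0.46 for Acot2, 0.00986 to 0.536 for Acot1, 0.00966 to 0.828 for Mlycd and 0.0132 to 0.949 for Esrra. The causes of these shifts were not tested. Every gene had at least 12 counts in every library, and with 3 mice a group the spread between animals enters every standard error.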
